A study of Mus musculus with 21 samples.

Results

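Primary mouse hepatocytes treated with 2 µM of Reference 4, an RNA interference (RNAi) agent directed against Ttr, were compared with hepatocytes given phosphate-buffered saline (PBS). The comparison takes every library titled for Reference 4 at 2 µM and every PBS library, 3 and 3, or 6 of the 21 libraries of the series, over all 9657 genes in the files. Ttr encodes transthyretin, a protein secreted by the liver that carries thyroid hormone and, bound to retinol-binding protein, vitamin A. All groups were wild type by genotype and were sampled on Day 1. They differed in what the cells received: PBS, Reference 4 at 0.2 or 2 µM, TTR-1236 at 0.2 or 2 µM, or TTR-1186 at 0.2 or 2 µM, with 3 libraries each. The labels used here give no strain, age or number of animals. Whether replicates were separate animals or cultures is left unsaid. Each p-value therefore reflects the spread between these libraries alone, which may be technical.

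RNAi agents are short double-stranded RNAs taken up by the cell. A strand of it is loaded into an Argonaute protein, which then cuts messenger RNAs that pair with it closely and can also lower messenger RNAs that pair with only a few bases at its 5′ end. Hepatocytes make most plasma proteins, clear drugs and run much of lipid, glucose and amino acid metabolism. In inflammation they change their secretion to acute phase proteins, and in culture they lose part of their adult expression over time.

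Expression was read with QuantSeq, which counts 3′ ends of polyadenylated RNA. Levels are CPM, reads per 1000000 reads assigned to the 9657 genes in the files. PBS replicates 1, 2 and 3 held 14324315, 19109736 and 26340870 reads, and the Reference 4 2 µM replicates 18802476, 32927430 and 29523758. Fold changes are on the scale of log2(CPM + 1), which understates changes of low genes, and carry a standard error (SE). The words rose and fell are kept for genes with an adjusted p under 0.05 (limma over all 21 libraries, Benjamini-Hochberg over all genes). Of 16 hepatocyte markers 15 were in the files, and their sum was 40886 to 58266 CPM in PBS and 44760 to 49702 CPM with Reference 4 at 2 µM. Of other cell types, 2 of 17 Kupffer cell, 4 of 16 endothelial, 4 of 17 stellate and 3 of 10 cholangiocyte markers were measured, and 0 of 13 lymphocyte and 0 of 8 neutrophil markers. The summed Kupffer cell markers, Cd68 and Csf1r, were 79.6 to 101 CPM in PBS and 128 to 157 CPM at 2 µM, a separation carried by Cd68 (81.6 CPM on average in PBS and 135 CPM at 2 µM, log2 fold change 0.73, not past the threshold), with Csf1r at -0.07, and the sums of the other 3 lists overlapped between the groups. Their part in the results was not tested, and in bulk libraries fewer cells of a type and less RNA per cell cannot be told apart.

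The PBS libraries were not alike. Mitochondrial ribosomal RNA made up 3.26%, 2.70% and 0.797% of the reads of PBS replicates 1, 2 and 3. In the Reference 4 2 µM libraries it made up 1.10%, 0.819% and 0.383%. The means of 2.25% ± 1.29 and 0.767% ± 0.361 (SD, n = 3) gave p = 0.3 in an exact two-sided permutation test, which cannot go below 0.1 with 3 libraries a group. PBS replicate 3 lay nearer to the treated libraries than its group did on the first principal component of all 21 libraries (13.9, against -33.8 and -24.5 for PBS replicates 1 and 2 and 20, 24.3 and 42.9 at 2 µM). Its part in each result was measured by leaving it out.

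Against PBS, 57 of 9657 genes rose (0.59%) and 160 fell (1.66%), together 217 (2.25%), and 15 and 115 of them changed at least 2-fold. Beyond Ttr itself, rises were modest and included secreted and acute phase genes, glycolytic enzymes and small housekeeping proteins. Falls were larger and included Apob, chromatin regulators, splicing factors, endosomal proteins and signalling genes such as Jak1 and Jag1. Libraries of the 2 groups did not overlap for 1899 genes (19.7% of those tested). They did not overlap for any of the 57 risen genes, and overlapped for 8 of the 160 fallen ones, 152 being apart. Protein-coding genes made up 37 of the risen and 140 of the fallen, which is 0.431% and 1.63% of 8584 tested. Pseudogenes made up 18 and 17, which is 2.42% and 2.28% of 744 tested. They were 31.6% of the risen genes. None of 36 mitochondrially encoded genes was called.

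The number of calls depended on which library was present. Without PBS replicate 3 it was 1272 (362 risen and 910 fallen), of which 214 were among the 217. Without PBS replicate 1 it was 6 and without PBS replicate 2 it was 9, all falls. Leaving out Reference 4 replicates 1, 2 and 3 gave 66, 98 and 10. DESeq2 on the reads recovered from the CPM called 246 rises and 482 falls, and a fit on the 6 libraries alone called 9 and 31. Only 5 genes passed in the full fit and in all 6 fits with 1 library left out: Ttr, Hspa9-ps1, Jak1, Prpf4b and Dync1h1. Of the 73 called genes named here besides Ttr, 69 were not called without PBS replicate 1, 69 without PBS replicate 2, and 48, 36 and 67 without Reference 4 replicates 1, 2 and 3, while 1 (Cyp3a13) was not called without PBS replicate 3.

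**Figure D1:**
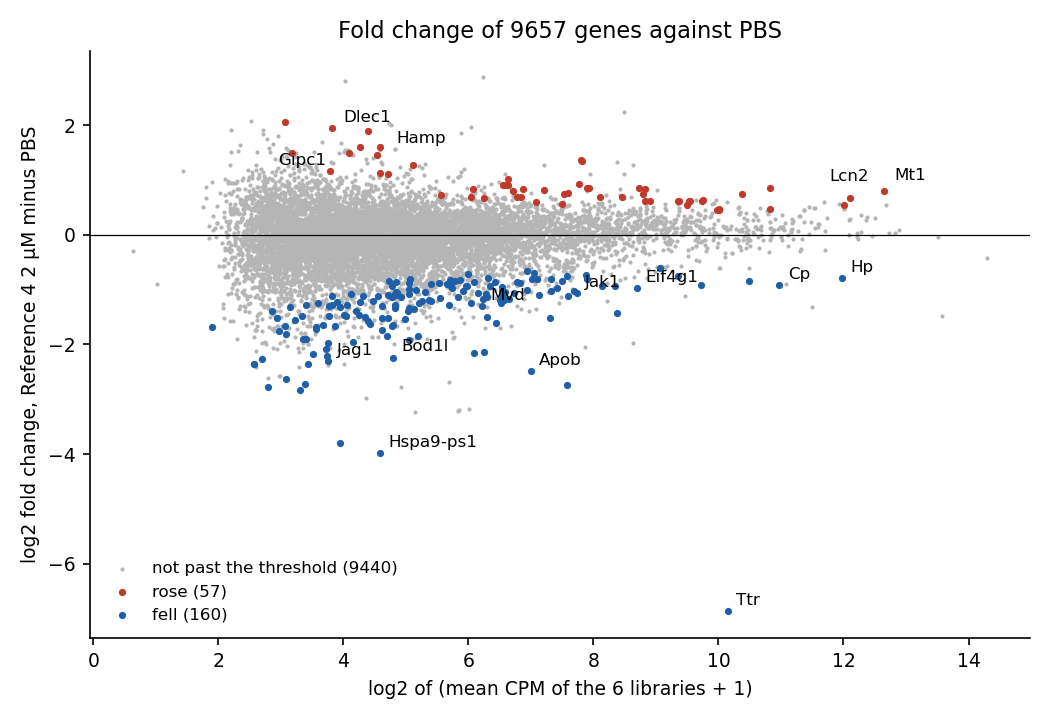
Log2 fold change of Reference 4 at 2 µM minus PBS (y axis) against the log2 mean CPM of the 6 libraries plus 1 (x axis), 1 point per gene. Red points are the 57 genes that rose, blue points the 160 that fell, grey points genes not past the threshold. Ttr stands lowest at -6.87, and most fallen genes lie further from 0 than the risen ones.

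Ttr (ENSMUSG00000061808, GRCm38 chr18:20665280-20674321, plus strand) checks the labels. Its level was 2272, 2168 and 2336 CPM in PBS replicates 1, 2 and 3 and 27.1, 17.4 and 12.9 CPM in the Reference 4 2 µM libraries. Every treated library was far below every PBS library. What remained was 0.848% of the PBS mean, a log2 fold change of -6.87 ± 0.42 (SE), and it lay between -7.14 and -6.63 whichever library was left out. Among 7 carriers of retinol and thyroid hormone, Rbp4, the plasma retinol-binding protein that travels with transthyretin, rose. It was 842, 875 and 905 CPM in PBS and 1179, 1246 and 1154 CPM at 2 µM, a log2 fold change of 0.45 ± 0.11 (adjusted p = 0.0409 in limma). All treated libraries were above all PBS libraries, but the call was lost without any 1 library other than PBS replicate 3.

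Acute phase proteins moved in both directions. Of 28 measured members 4 rose (Hamp, Saa3, Mt1 and Lcn2) and 2 fell (Hp and Cp), where 0.59% and 1.66% of all genes did. The list's median log2 fold change was 0.32 with 19 members higher, against -0.03 over all genes. With 1 library left out the counts were 0 to 2 risen and 0 to 2 fallen, except without PBS replicate 3, where 7 rose and 2 fell.

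Saa3 and Lcn2 are known targets of inflammatory signalling through C/EBP factors, and their upstream sequence was searched on both strands for TTNNGNAA, a loose C/EBP consensus, and TTCNNNGAA, bound by STAT proteins. Within the 250 bases before the RefSeq start site (GRCm38.p6), Saa3 held 4 C/EBP matches and Lcn2 held 1, and both held 0 STAT matches. Of 32851 such windows in the RefSeq promoter table, 7.02% held a STAT match, 36.8% at least 1 C/EBP match and 0.591% at least 4, so a single C/EBP match is common. The 30 bases around the match nearest to each start site are shown 5′ to 3′ on the gene's strand, here the minus strand for both, with the C/EBP match in capitals. The Saa3 letters read as the motif on the strand shown, and the Lcn2 letters read as the motif on the opposite strand.
Saa3, chr7:46715757-46715786: ggtaagtgggaTTATGCAAgatcaaacagg
Lcn2, chr2:32387937-32387966: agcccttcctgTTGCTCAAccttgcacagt
The Saa3 match began 99 bases before the start site and the Lcn2 match 216 bases. These are matches of letters, and binding was not measured.

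Hamp encodes hepcidin, the hormone that blocks iron export from cells. It was at 11.4, 5.13 and 17.9 CPM in PBS and 45.2, 33.6 and 24.6 CPM at 2 µM. The groups were apart, and the mean was 3.0 times that of PBS (log2 fold change 1.61 ± 0.41, adjusted p = 0.0382 in limma), the largest rise among the genes named by the size of their change. Under edgeR with TMM factors its adjusted p was 0.0547. Saa3, an inducible serum amyloid A, was at 137, 82.8 and 103 CPM in PBS and 213, 175 and 173 CPM at 2 µM (0.82 ± 0.20). Lcn2, which sequesters bacterial iron carriers, was at 3253, 3138 and 3708 CPM and then at 5925, 4775 and 5534 CPM (0.68 ± 0.16). For both genes the lowest treated library lay above the highest PBS library.

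Mt1, a metallothionein that binds zinc and copper, was at 4416, 4391 and 5039 CPM in PBS and at 10023, 7625 and 6837 CPM at 2 µM. The 3 treated libraries differed more among themselves than the PBS libraries did, and all were higher (log2 fold change 0.81 ± 0.15, adjusted p = 0.013 in limma). Its paralog Mt2 was at 2953, 2774 and 2840 CPM and then at 3568, 3308 and 2999 CPM, a fold change of 0.20 ± 0.14 that did not pass (adjusted p = 0.43 in limma). Of 18 genes of metallothionein and zinc handling Mt1 was the only one past the threshold.

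The 2 fallen members handle haemoglobin and copper. Hp, haptoglobin, which captures free haemoglobin, was at 5431, 4772 and 5166 CPM in PBS and 3174, 2870 and 2820 CPM at 2 µM (log2 fold change -0.79 ± 0.15, adjusted p = 0.013 in limma). Cp, ceruloplasmin, the copper-bearing ferroxidase, was at 2969, 3273 and 1741 CPM and then at 1389, 1362 and 1343 CPM (-0.91 ± 0.19). PBS replicate 3 was lowest of its group for Cp, and still above every treated library. Ftl1, the ferritin light chain that stores iron, rose from 3360 ± 499 to 4889 ± 322 CPM (SD, n = 3), and its partner Fth1 had a fold change of 0.13 ± 0.14 that did not pass. Over 34 genes of iron, haem and copper handling 2 rose and 2 fell (11.8% called, against 2.25% of all genes). Members of the acute phase list are counted again in that share. The lists were also chosen with earlier results of these data known.

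Other members of the acute phase list were higher without passing. Orm1, an orosomucoid, was at 259, 244 and 262 CPM in PBS and at 513, 341 and 299 CPM at 2 µM (0.55 ± 0.16, adjusted p = 0.063 in limma). Serpina3n, a protease inhibitor, had a fold change of 0.73 ± 0.23 (adjusted p = 0.084) and Saa1 one of 0.36 ± 0.17 (adjusted p = 0.24). The fibrinogen chain Fgb had a fold change of -0.33 ± 0.18. These 4 were picked after their values were seen, to show the spread within the list.

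Among 23 apolipoprotein and lipoprotein assembly genes, 1 rose and 1 fell (8.70% called, against 2.25% of all genes). Apoc3, a small apolipoprotein that slows clearance of triglyceride-rich particles, was at 845, 865 and 1275 CPM in PBS and 1789, 1496 and 1677 CPM at 2 µM (0.75 ± 0.17). Apob (chr12:7977648-8016835), the backbone protein of very low density lipoproteins, was at 283, 270 and 102 CPM in PBS and at 38.8, 36.4 and 29.5 CPM at 2 µM. PBS replicate 3 was well below its group, and the lowest PBS library was above the highest treated one. The fold change of Apob was -2.48 ± 0.44 (adjusted p = 0.0131 in limma), the largest fall after Ttr among the genes named by the size of their change, and it was not called without Reference 4 replicate 3 or PBS replicate 1 or 2. Of this list 17 members were higher and 6 lower (median 0.20).

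Serpins are mostly secreted protease inhibitors, and 1 of 21 rose (4.76% called, against 2.25% of all genes). Serpina1d, an alpha-1-antitrypsin, went from 323 ± 17.9 to 581 ± 62.9 CPM (SD, n = 3). It overlaps Serpina1b in the annotation and belongs to a family of near-identical copies, so its reads may be shared with Serpina1a, Serpina1b and Serpina1c, whose fold changes were 0.04, 0.08 and 0.04 with adjusted p-values in limma of 0.94, 0.86 and 0.95. Of 31 genes of glucose metabolism 3 rose (9.68% called). They were Tkfc, which phosphorylates dihydroxyacetone (0.83 ± 0.21), Eno1, enolase (0.63 ± 0.17), and Pgk1, phosphoglycerate kinase (0.54 ± 0.13). Pgk1 was at 581, 617 and 563 CPM in PBS and 861, 856 and 847 CPM at 2 µM, with no overlap. Reads of Eno1 may be shared with Eno1b, a near-identical locus whose fold change was 0.62.

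Cholesterol synthesis genes contributed 2 falls (4 with the replicate number as a block) and 0 rises among 27, with 19 members lower (median -0.24). The share called was 7.41%, against 2.25% of all genes. Mvd, mevalonate diphosphate decarboxylase, was at 77.7, 107 and 133 CPM in PBS and 37.4, 39.5 and 48.0 CPM at 2 µM (log2 fold change -1.30 ± 0.24, adjusted p = 0.0128 in limma). The groups were apart, and the call was lost only without PBS replicate 2 (adjusted p = 0.0618). Hmgcs1, which makes HMG-CoA early in the pathway, was at 339, 341 and 207 CPM and then at 158, 182 and 180 CPM (-0.74 ± 0.17). In 48 cytochrome P450 and conjugation genes Cyp3a13 was the 1 member that rose (0.60 ± 0.16), and it was lost with any library left out. In 48 glutathione and NRF2 target genes 1 rose, Gstp3, a glutathione S-transferase (1.28 ± 0.28). Each of these lists of 48 had 2.08% called, near the 2.25% of all genes.

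Of 57 interferon-stimulated genes 1 rose (1.75% called, against 2.25% of all genes). It was Lgals9, a secreted galectin, which went from 356 ± 11.1 to 547 ± 47.1 CPM (SD, n = 3), and 35 members of the list were higher (median 0.15). Of 20 RNA sensor and signalling genes 0 passed, at 2.25% called over all genes. The members with the smallest p were Zbp1, a sensor of Z-form nucleic acid, at 0.908, 2.93 and 2.85 CPM in PBS and 8.14, 11 and 5.15 CPM at 2 µM (1.51 ± 0.45, adjusted p = 0.0691 in limma), and Ddx58, the RIG-I sensor (-0.89 ± 0.29, adjusted p = 0.083). Among 23 NF-kB target and chemokine genes 3 rose (Saa3, Lcn2 and Mif) and 0 fell, or 13% against 0.59% of all genes that rose, while the list median was -0.02. With 1 library left out 0 to 3 of them rose. Saa3 and Lcn2 were also counted in the acute phase list above, so this share is not a separate result. Mif, a cytokine with tautomerase activity, was at 1006, 1133 and 1788 CPM in PBS and 2179, 2313 and 2426 CPM at 2 µM (0.86 ± 0.17). Its neighbour and paralog Ddt rose from 87.4 ± 16.2 to 141 ± 2.18 CPM.

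Jak1 (chr4:101152367-101265282), a kinase that signals for interferon and interleukin-6 family receptors, was the 1 call among 29 JAK-STAT and cytokine receptor genes. It was at 297, 310 and 256 CPM in PBS and 137, 147 and 128 CPM at 2 µM. Every treated library was near the same low level, far below the lowest PBS library. The log2 fold change was -1.06 ± 0.13 (adjusted p = 1.34e-04 in limma), and without any 1 library it stayed between -1.14 and -1.0 with an adjusted p of at most 0.00319. Raver2, which overlaps Jak1 in the annotation, had a fold change of -1.0 ± 0.22, and no source used here gives the strand setting of the counting, so reads of the pair may be shared. In the whole list 3.45% was called, near the 2.25% of all genes. Of its members 21 were lower and the median was -0.27, beside -0.03 over all genes.

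Genes of uptake and endosomes bear on how such agents enter the cell. Of 58 members, 1 rose and 3 fell (6.90% called, against 2.25% of all genes). The median was -0.01 beside -0.03 over all genes. Gipc1, an adaptor that links receptors to myosin VI on endosomes, was at 5.58, 8.90 and 8.81 CPM in PBS and 15.5, 25.1 and 32.5 CPM at 2 µM (1.5 ± 0.30). Eea1, an early endosome tether, was at 82.5, 69.3 and 21.5 CPM in PBS and 11.8, 17.3 and 11.3 CPM at 2 µM (-1.84 ± 0.41). PBS replicate 3 lay close above the treated libraries for Eea1, and without it the fold change was -2.43. Lyst, a regulator of lysosome size, and Ap2b1, a subunit of the clathrin adaptor AP2, also fell (-1.72 ± 0.37 and -0.78 ± 0.21). Asgr1, a subunit of the asialoglycoprotein receptor, had a fold change of -0.15 ± 0.28 and Asgr2 one of 0.79 ± 0.28, neither past the threshold.

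None of 28 genes of the RNAi and microRNA machinery passed, where 2.25% of all genes did. In this list 20 were lower, and 28.6% were higher against 47.3% of all genes. The median was -0.31, beside -0.03 over all genes. Without PBS replicate 3 there were 10 falls and 1 rise, DESeq2 called 4 falls, and leaving out any other library gave 0 or 1. Ago2, the Argonaute that cuts its target, was at 115, 123 and 148 CPM in PBS and 104, 74.2 and 56.7 CPM at 2 µM (-0.75 ± 0.21, adjusted p = 0.0534 in limma). All 3 treated libraries were below the PBS libraries, though replicate 1 only slightly. Ddx6, a helicase of translational repression, had a fold change of -0.78 ± 0.23 (adjusted p = 0.0655). The list's median transcript length was 5450.5 bases. In the longest of 5 equal bins of protein-coding genes by transcript length the median fold change was -0.38. The part of length was not tested.

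Chromatin and transcription regulators had the lowest median of any list with 10 or more measured members, -0.71, with 69 of 73 members lower. Of these 8 fell and 0 rose, or 11% of the list against 1.66% of all genes that fell. The list's median transcript length was 8350 bases. In the longest of 5 equal bins of protein-coding genes by transcript length, 4.89% fell and the median was -0.38. The part of transcript length in this list was not tested. Without PBS replicate 3 the list had 36 falls, with the replicate number as a block 12, and with any other 1 of the 6 libraries left out it had 0 to 4, while 66 to 72 of its members were lower in all 6 fits. Bod1l (chr5:41787538-41844315), which protects stalled replication forks and associates with histone methyltransferase complexes, was at 40.8, 69.4 and 24.8 CPM in PBS and 7.82, 11.6 and 5.45 CPM at 2 µM (log2 fold change -2.24 ± 0.40, adjusted p = 0.0116 in limma). Chd4, the remodelling ATPase of the NuRD complex, was at 325, 292 and 216 CPM and then at 153, 125 and 128 CPM (-1.02 ± 0.19). Neither gene's groups overlapped, and PBS replicate 3 was the lowest PBS library for both. Ankrd12 (-1.96 ± 0.49), Resf1, a silencer of retroelements (-1.84 ± 0.45), Kdm5a, a histone demethylase (-1.34 ± 0.30), and Smarcc1, a SWI/SNF subunit (-1.02 ± 0.24), fell as well. Kdm5a overlaps Ccdc77, whose fold change was -1.52.

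Of 58 RNA polymerase III and ribosomal RNA processing genes 3 fell (5.17%, against 1.66% of all genes) and 0 rose: Rbm28, a nucleolar factor of the large ribosomal subunit, Bdp1, a subunit of the initiation factor TFIIIB, and Dkc1, the pseudouridine synthase dyskerin. Rbm28 was at 57.5, 69.1 and 29.5 CPM in PBS and 10.2, 12.7 and 14 CPM at 2 µM (-1.92 ± 0.32, adjusted p = 0.00544 in limma). Dkc1 went from 129 ± 37.3 to 42.1 ± 13.5 CPM (SD, n = 3), and its annotated span overlaps Mpp1, which had a fold change of -0.15. The list had 41 members lower and a median of -0.23, which was -0.06 without PBS replicate 1. With 1 library left out 0 to 3 of its genes fell, except 11 without PBS replicate 3.

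Of 61 splicing factors 3 fell (4.92%) and 46 were lower (median -0.28), with 1 or 2 falls when a library was left out and 18 without PBS replicate 3. Prpf4b, a kinase that phosphorylates splicing proteins, was at 101, 102 and 72.9 CPM in PBS and 35.5, 44.3 and 34.0 CPM at 2 µM. The treated libraries were well below the PBS libraries, and the fold change of -1.25 ± 0.20 (adjusted p = 0.00353 in limma) stayed past the threshold without any 1 library, at an adjusted p of at most 0.0412. Srrm2, a large scaffold of nuclear speckles, fell from 367 ± 69.6 to 197 ± 65.2 CPM and Snrpd3, a core snRNP protein, from 107 ± 37.6 to 53.8 ± 2.54 CPM. Eif4g1, the scaffold of the cap-binding complex, was the 1 call among 49 translation factors (-0.97 ± 0.20), where 3 fell with the replicate number as a block. Zfp865 (-1.47 ± 0.31) was the 1 call among 115 zinc finger genes named Zfp, of which 89 were lower (median -0.25). That share, 0.870%, was below the 2.25% called over all genes.

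Genes for short, abundant proteins of ribosomes and mitochondria were mostly higher, with few past the threshold. Of 77 nuclear genes of the respiratory chain and ATP synthase 66 were higher (median 0.27, against 47.3% of all genes higher), and 1 rose (1.30%, against 0.59% of all genes). That gene, Atp5g2, which encodes the membrane ring subunit of ATP synthase, was at 145, 141 and 138 CPM in PBS and 229, 218 and 277 CPM at 2 µM (0.76 ± 0.17). The 3 PBS libraries were nearly equal and all treated libraries were higher. Of 86 cytosolic ribosomal protein genes 71 were higher (median 0.15) and 2 rose (2.33%), Rps18 (0.61 ± 0.14) and Rpl10 (0.47 ± 0.12). Of 75 mitochondrial ribosomal protein genes 58 were higher (median 0.14) and 0 passed. The share of all reads on cytosolic ribosomal protein genes was 8.58% ± 0.565 in PBS and 9.50% ± 0.315 at 2 µM (SD, n = 3, exact permutation p = 0.2). Without PBS replicate 3, the respiratory list had 10 rises and the cytosolic ribosomal list 10, and 0 or 1 each with any other library left out.

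Single calls in other lists covered stress, clock and transport genes. Over all genes 2.25% were called. Hspa5, the main chaperone of the endoplasmic reticulum, fell from 824 ± 220 to 485 ± 83.8 CPM, the 1 call of 30 in its list (3.33%). Atf5, a transcription factor of the integrated stress response, fell from 1101 ± 93.0 to 584 ± 90.9 CPM, the 1 call of 25 (4%). Atf5 overlaps Nup62, which had a fold change of 0.40. Ubb, a polyubiquitin gene, rose from 300.0 ± 31.7 to 548 ± 67.7 CPM, the 1 call of 26 (3.85%). In the circadian list of 13, Cipc, an inhibitor of CLOCK, rose (1.18 ± 0.29) and Hlf, a clock output factor, fell (-1.68 ± 0.44). These 2 made up 15.4% of that list. The solute carriers Slc12a2, Slc4a4 and Slc35d1 fell among 138 (2.17%, near the 1.66% of all genes that fell). The cytoskeletal proteins Utrn and Plec fell among 56 (3.57%), the Golgi mannosidase Man2a1 among 32 (3.1%), and Jag1, a Notch ligand, among 24 signalling genes (4.17%). Jag1 was at 39.9, 22.1 and 4.94 CPM in PBS and 1.65, 2.52 and 4.03 CPM at 2 µM. Its PBS replicate 3 was near the treated level, and the fold change of -2.30 was -1.70 without PBS replicate 1 (adjusted p = 0.186 in limma) and -3.09 without PBS replicate 3.

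No gene passed in the remaining lists, at 2.25% called over all genes. With the replicate number as a block, 1 urea cycle gene rose, and 1 hepatocyte transcription factor, 2 heat shock genes and 1 proteasome subunit fell. Among them 32 of 45 urea cycle and amino acid genes were higher (median 0.27), as were 14 of 19 major urinary proteins (0.13), 11 of 21 complement genes (0.00), 10 of 24 coagulation genes (-0.02) and 10 of 25 hepatocyte transcription factors (-0.04). In lipid metabolism 8 of 29 fatty acid synthesis genes (-0.08), 13 of 32 oxidation genes (-0.08) and 5 of 10 bile acid genes (-0.06) were higher. The stress and growth lists had 23 of 38 proteasome subunits (0.05), 15 of 29 heat shock genes (0.03) and 10 of 31 cell cycle and p53 target genes (-0.10) higher. Of the mitochondrially encoded RNAs, 10 of 13 mRNAs (0.23), 15 of 21 tRNAs (0.21) and 0 of 2 rRNAs (-1.39) were higher.

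**Figure D2:**
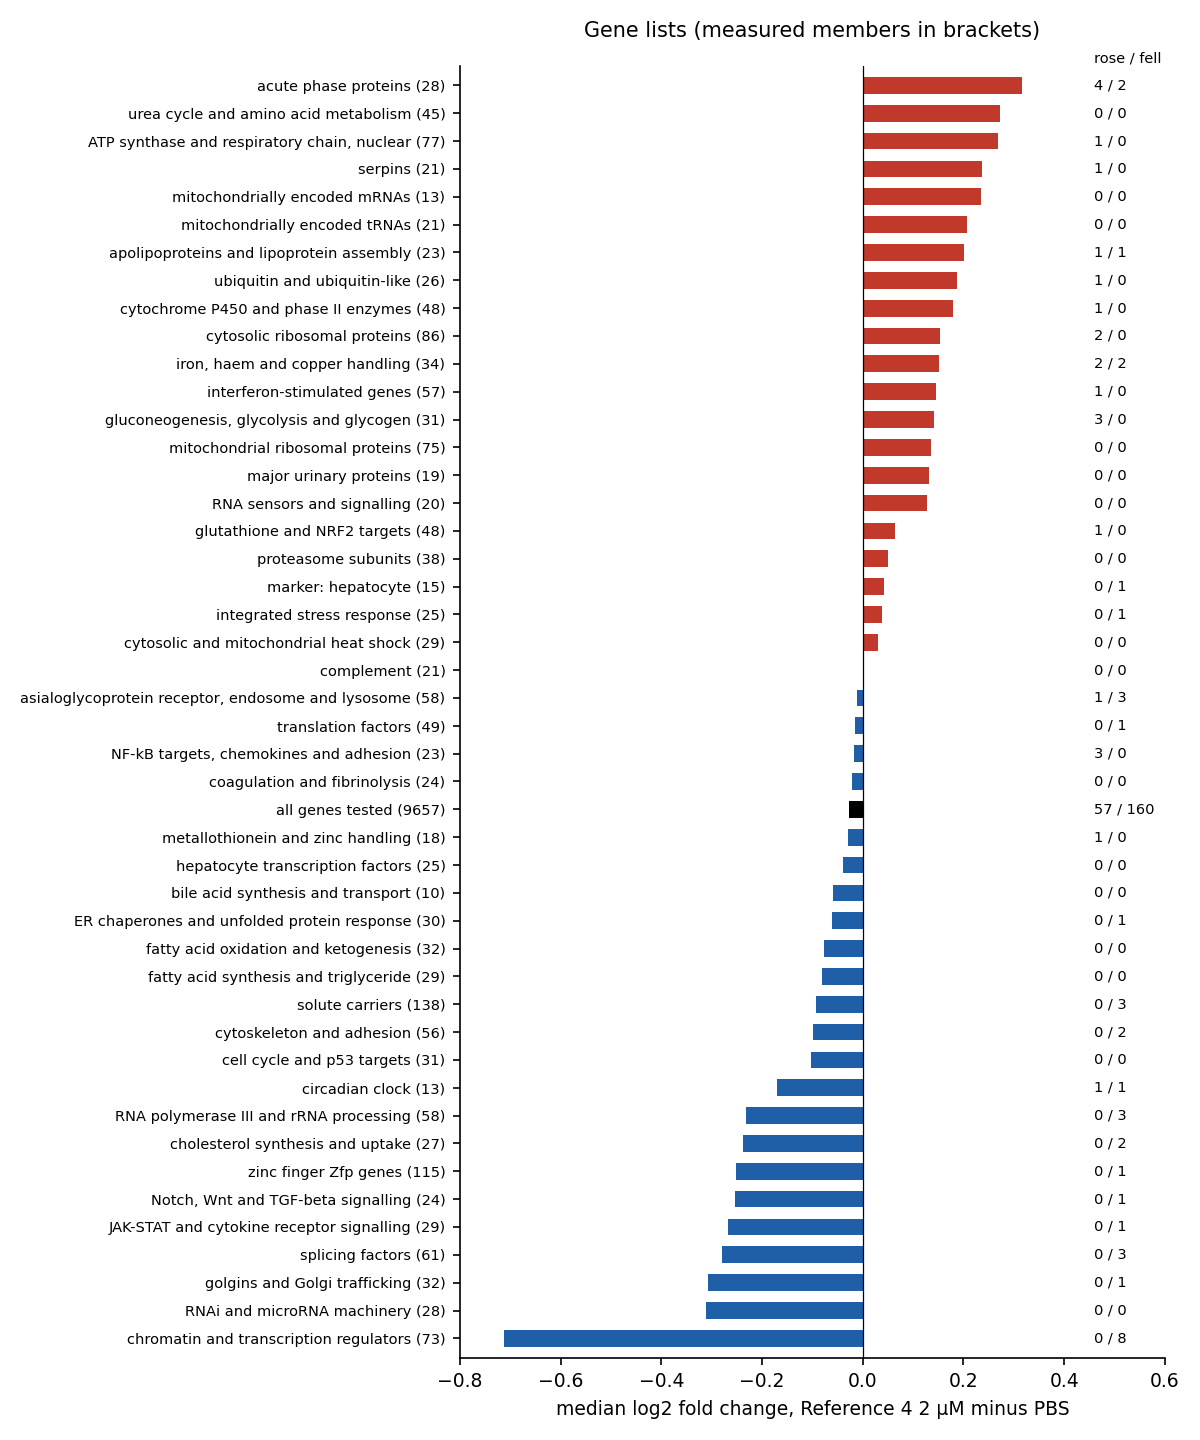
Median log2 fold change of Reference 4 at 2 µM minus PBS (x axis) for each list with 10 or more measured members (y axis, members measured in brackets), with the numbers that rose and fell at the right. The black bar is all 9657 genes. Acute phase proteins have the highest median (0.32) and chromatin and transcription regulators the lowest (-0.71).

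The remaining large changes fell outside these lists. Falls included Inhba, a subunit of activin, from 40.5 ± 12.9 to 12.4 ± 5.26 CPM (SD, n = 3), Pik3r1, the regulatory subunit of PI3-kinase, from 47.4 ± 25.5 to 13.7 ± 0.354 CPM, and Nrip1, a corepressor of nuclear receptors, from 31.8 ± 16 to 9.08 ± 3.86 CPM. Map3k1, a stress kinase (-1.51 ± 0.37), Cdc40, a splicing step factor (-1.64 ± 0.40), Ankhd1 (-1.65 ± 0.43) and Etl4 (-1.57 ± 0.33) fell as well. Rises included Cdc34, a ubiquitin-conjugating enzyme (0.69 ± 0.13), H1f0, a linker histone (0.73 ± 0.19), and Tex264 and Retreg2, proteins of endoplasmic reticulum turnover (0.69 ± 0.18 and 0.68 ± 0.17). Dlec1 had a fold change of 1.60 ± 0.42, but it overlaps Acaa1b, a peroxisomal thiolase with a fold change of 1.38 that did not pass, and reads of the pair may be shared. The same holds for the readthrough gene RPS10-NUDT3 (0.74 ± 0.14), which overlaps Rps10 (0.35, adjusted p = 0.12 in limma) and Nudt3 (0.01).

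Dync1h1, the heavy chain of dynein, is named after its values were seen because it passed with every library left out. It was at 559, 447 and 445 CPM in PBS and 196, 216 and 132 CPM at 2 µM (-1.43 ± 0.19). Pseudogenes can take reads of their parent genes, so their values are uncertain. Hspa9-ps1 was at 73.6, 42.9 and 16.9 CPM in PBS and 1.70, 2.31 and 0.644 CPM at 2 µM (-3.99 ± 0.47, adjusted p = 8.05e-05 in limma). Rpl26-ps2 (-1.12 ± 0.30) and Amd-ps3 (-0.88 ± 0.22) fell, Rpl26-ps2 narrowly (adjusted p = 0.0499 in limma, 0.0518 with the replicate number as a block), and Rpl15-ps2 (0.85 ± 0.21) and Rpl10-ps6 (0.63 ± 0.15) rose.

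**Figure D3:**
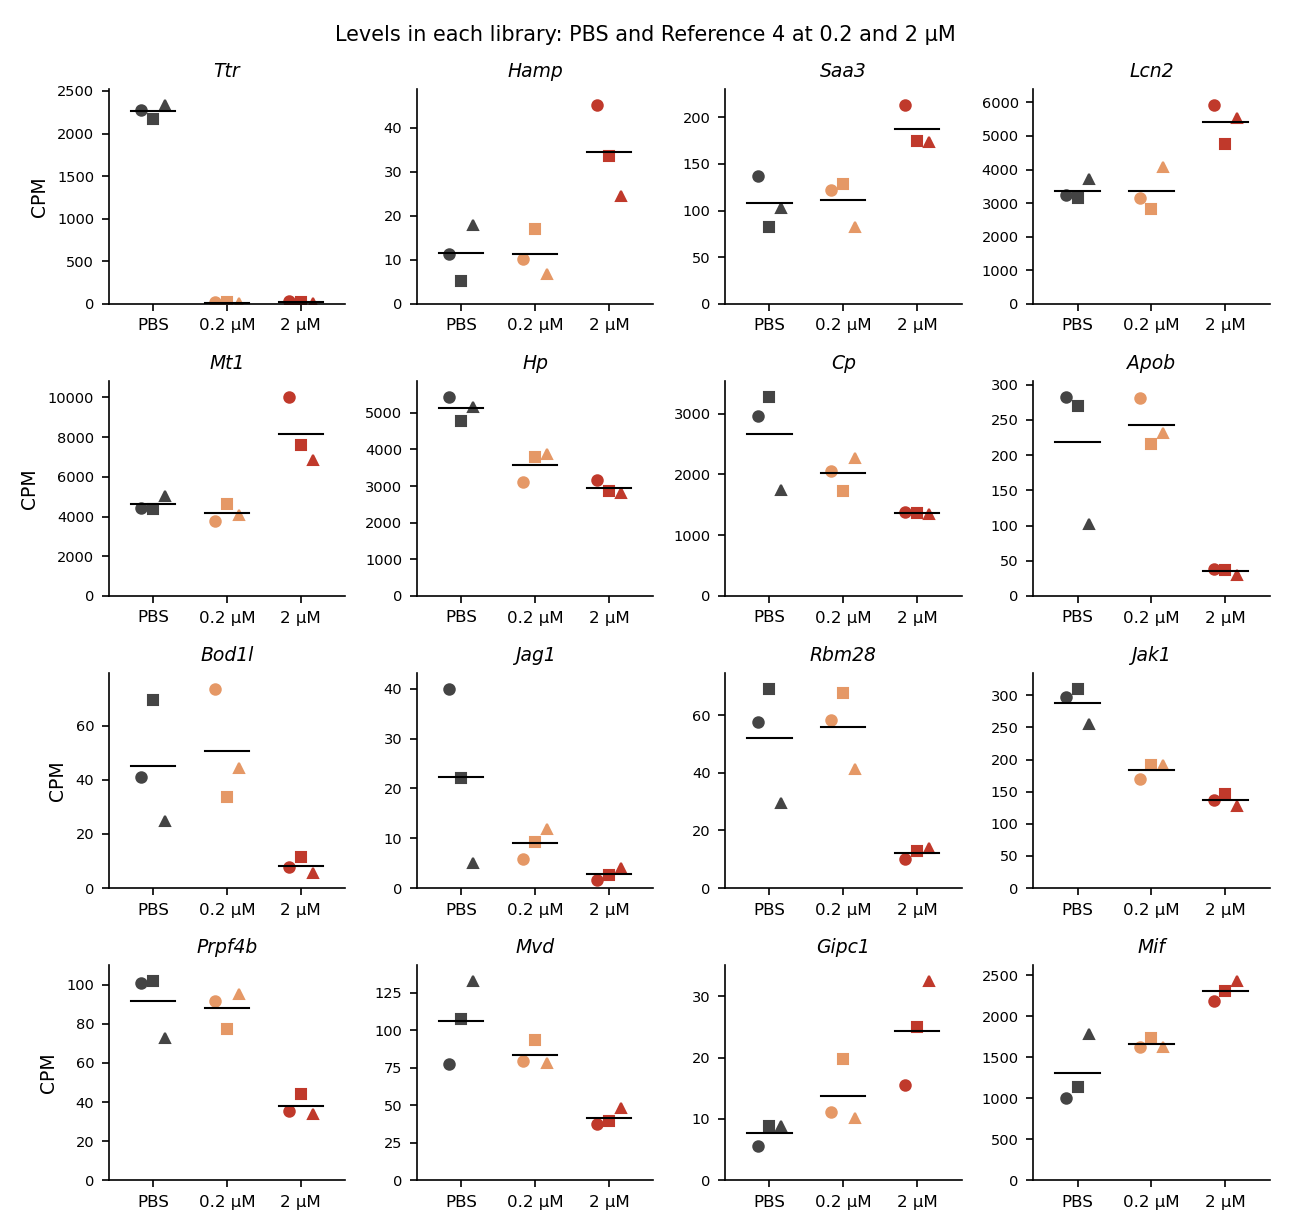
CPM (y axis, from 0) of 16 genes in each library of PBS, Reference 4 at 0.2 µM and Reference 4 at 2 µM (x axis). Circles, squares and triangles are replicates 1, 2 and 3 and bars are group means. Hamp, Saa3, Lcn2 and Mt1 are high at 2 µM, while Apob, Bod1l, Rbm28 and Prpf4b are low at 2 µM against PBS.

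Genes that rose and fell differed in the length of their transcripts. The longest annotated transcript of the 37 risen protein-coding genes had a median of 1318 bases and that of the 140 fallen ones 5640 bases, against 3059 bases for all 8584. The 3′UTR medians were 320, 2132 and 1196 bases and the exon medians 5, 15 and 9. GC content was 54.3%, 46.4% and 50.3%. With genes split into 5 equal bins of transcript length, 1.40% of the shortest bin rose and 0.582% fell, while 0.0582% of the longest bin rose and 4.89% fell. The median log2 fold change went from 0.16 in the shortest bin through 0.06, -0.01 and -0.14 to -0.38 in the longest. In the longest bin it was -0.31 without PBS replicate 1 or 2 and -0.51 without PBS replicate 3.

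The same genes also separated libraries within groups. In the longest bin the median deviation from the mean of all 21 libraries was 0.36 and 0.37 in PBS replicates 1 and 2, -0.08 in PBS replicate 3, and -0.22, -0.09 and -0.19 in the Reference 4 2 µM libraries. PBS replicates 1 and 2 thus lay furthest above the mean, and they also had the larger shares of mitochondrial ribosomal RNA among the PBS libraries. The measured chromatin regulators had a median transcript length of 8350 bases, the RNAi machinery 5450.5, golgins 5341.5, the cytosolic ribosomal proteins 910 and the nuclear respiratory chain 875, against 2824.5 over all genes. The part of transcript length or RNA quality in the results of these lists was not tested.

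**Figure D4:**
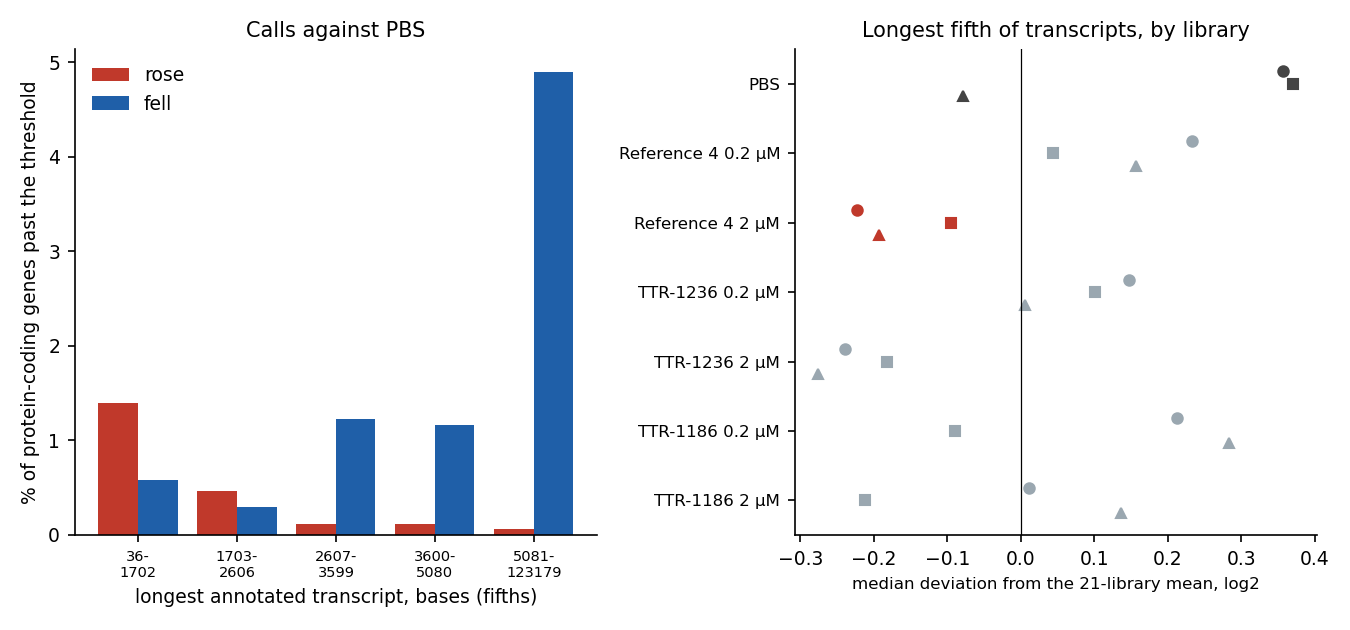
Left, percent of protein-coding genes that rose (red) or fell (blue) against PBS (y axis) in each of 5 equal bins of longest transcript length (x axis, bases). Right, for the longest bin, each library's median deviation from the 21-library mean (x axis, log2) by group (y axis); PBS replicate 3 (triangle) lies at -0.08, apart from PBS replicates 1 and 2 at 0.36 and 0.37.

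The comparison of 2 µM with 0.2 µM of Reference 4 needs no PBS library. It called 1239 genes (12.8%), 655 higher at 2 µM (6.78%) and 584 lower (6.05%). Without Reference 4 2 µM replicate 3 the count was 208, without 2 µM replicate 2 it was 631, and without 0.2 µM replicates 1 and 2 it was 691 and 549. Ttr itself was at 13.3 ± 7.17 CPM at 0.2 µM and 19.2 ± 7.25 CPM at 2 µM (SD, n = 3), a difference that did not pass (adjusted p = 0.364 in limma). Several genes described above passed between doses. Mt1 was at 4167 ± 441 CPM at 0.2 µM (2 µM minus 0.2 µM, 0.96, adjusted p = 0.0016), Hamp at 11.3 ± 5.25 CPM (1.57, adjusted p = 0.016) and Apob at 243 ± 34.3 CPM (-2.76, adjusted p = 0.00224). Hp was at 3587 ± 421 CPM and Jak1 at 184 ± 12.3 CPM, between PBS and 2 µM, and only Jak1 passed between doses (-0.42, adjusted p = 0.04, against 0.24 for Hp). Share of mitochondrial ribosomal RNA moved with dose, at 2.70% ± 0.713 for 0.2 µM and 0.767% ± 0.361 for 2 µM (exact permutation p = 0.1, the smallest possible), and its part in these calls was not tested. Transcript length also went with the difference between doses. Its median, 2 µM minus 0.2 µM, was 0.19 in the shortest bin and -0.31 in the longest, and the part of length was not tested.

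The largest differences between doses included Apob, Bod1l and Ankrd12, described above, along with other genes. Iscu, a scaffold for iron-sulfur cluster assembly, was at 2.47, 1.94 and 2.50 CPM at 0.2 µM and 9.89, 21.7 and 39.4 CPM at 2 µM (2.71 ± 0.49). Gch1, the first enzyme of tetrahydrobiopterin synthesis, was at 10.1, 10.4 and 4.92 CPM and then at 36.3, 44.9 and 55.1 CPM (2.34 ± 0.44). In both, every 2 µM library was above every 0.2 µM library. Pfn1, profilin, had the largest higher value (3.48 ± 1.05), but its call was lost in 5 of the 6 fits with 1 library left out, and Reference 4 2 µM replicate 1 was at 4.10 CPM beside 57.1 and 80.9 CPM in the other two. Fh1, Gnb2, Pxdc1, Cyp2e1, Cd14, Tinagl1 and Ndufb1-ps were also higher, by 2.14 to 3.13. Of these Fh1, Gnb2, Cd14 and Ndufb1-ps were not called without Reference 4 2 µM replicate 3. The lower genes included the small nucleolar RNAs Snord89 (-4.56 ± 1.31) and Snora81 (-3.42 ± 1.05), which lie within other measured genes, and Malat1, a nuclear noncoding RNA. Malat1 was at 922, 518 and 796 CPM at 0.2 µM and 187, 170 and 81.6 CPM at 2 µM (-2.39 ± 0.73), with its call lost when any 1 library was left out. Syne2, Kcnq1ot1, Pawr, Golim4, Bod1l and Ankrd12 were lower by 2.30 to 2.45 on the log2 scale. Snord89 and Snora81 lost their call in 5 of the 6 fits with 1 library left out, and Syne2 and Pawr in 4. Kcnq1ot1 lost it in 2 and Golim4 in 1, while Apob, Bod1l and Ankrd12 lost it in 0.

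Agents were compared at the matched dose of 2 µM in 2 pairs, Reference 4 with TTR-1236 and Reference 4 with TTR-1186, with p-values adjusted over the genes of each pair. Their structures are not described here. Against TTR-1236 limma called 0 genes (0% of 9657), and the 2 groups did not overlap for 836 genes (8.66%). At an unadjusted p under 0.05 there were 288 genes (2.98%), edgeR also called 0, and DESeq2 called 1, Hlf, at 0.691, 1.03 and 0.508 CPM with Reference 4 and 1.58, 5.32 and 7.07 CPM with TTR-1236. The 95% interval of a difference had a median width of ±0.60 on the log2 scale, so differences of that size would often be missed. For Mt1 the difference was 0.13 (95% interval -0.18 to 0.45), for Apob 0.05 (-0.89 to 0.98), for Jak1 0.07 (-0.21 to 0.34) and for Ttr 0.50 (-0.37 to 1.37). Hamp differed by 1.15 (0.32 to 1.99), with an adjusted p of 1.00 in limma.

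Against TTR-1186, 36 genes passed (0.373%), 14 higher with Reference 4 (0.145%) and 22 lower (0.228%). Without Reference 4 replicate 1 the count was 2 and none of the genes named in this comparison passed. Without its replicate 3 it was 8, and without TTR-1186 replicate 3 it was 10, while DESeq2 called 127. TTR-1186 replicate 2 stood apart from its group on the first principal component (34.6, against -8.35 and -11.6 for replicates 1 and 3). Without it 27 genes passed, of which 13 were among the 36. Liver metabolic and secreted genes were among those higher. Igfbp1, a secreted binding protein of insulin-like growth factors, was at 419, 352 and 336 CPM with Reference 4 and 140, 194 and 188 CPM with TTR-1186 (1.09 ± 0.18, adjusted p = 0.00613 in limma). Fabp1, the liver fatty acid-binding protein, was at 54.0, 48.7 and 27.1 CPM and at 7.44, 13.5 and 7.11 CPM (2.09 ± 0.40). For both genes the 2 groups were far apart. Against PBS, the Reference 4 values of Igfbp1 and Fabp1 were -0.07 and 1.13, neither past the threshold. Mt1 (0.97 ± 0.15) and Lcn2 (0.79 ± 0.16) were also higher than with TTR-1186, as were Hpd, Gnmt and Cdo1, enzymes of amino acid breakdown, by 1.96, 1.27 and 0.83.

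Lower with Reference 4 than with TTR-1186 were Bod1l (-1.95 ± 0.40), Irf2, an interferon regulatory factor, and Sox4, a developmental transcription factor. Irf2 was at 9.25, 12 and 10.4 CPM with Reference 4 and 24.7, 32.9 and 32.1 CPM with TTR-1186 (-1.42 ± 0.30). Every Reference 4 library was lower. Irf7, the interferon-induced member of the family, was higher, at 118, 74.1 and 101 CPM against 59.9, 36.9 and 43.0 CPM (1.05 ± 0.22). Bc1 and Lrrc17 were lower by nearly equal amounts (both -1.80), as were Ppp2r5b and Gpha2 (-1.25 and -1.24), which overlap each other. Bc1 was at 43.3, 63.0 and 26.7 CPM with Reference 4 and 123, 269 and 97.8 CPM with TTR-1186. Lrrc17 was at 41.6, 60.7 and 25.1 CPM and at 117, 261 and 92.3 CPM. Bc1 lies on chr7 and Lrrc17 on chr5, and whether their reads are shared was not tested. Ttr differed by 0.73 (95% interval -0.14 to 1.60).

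**Figure D5:**
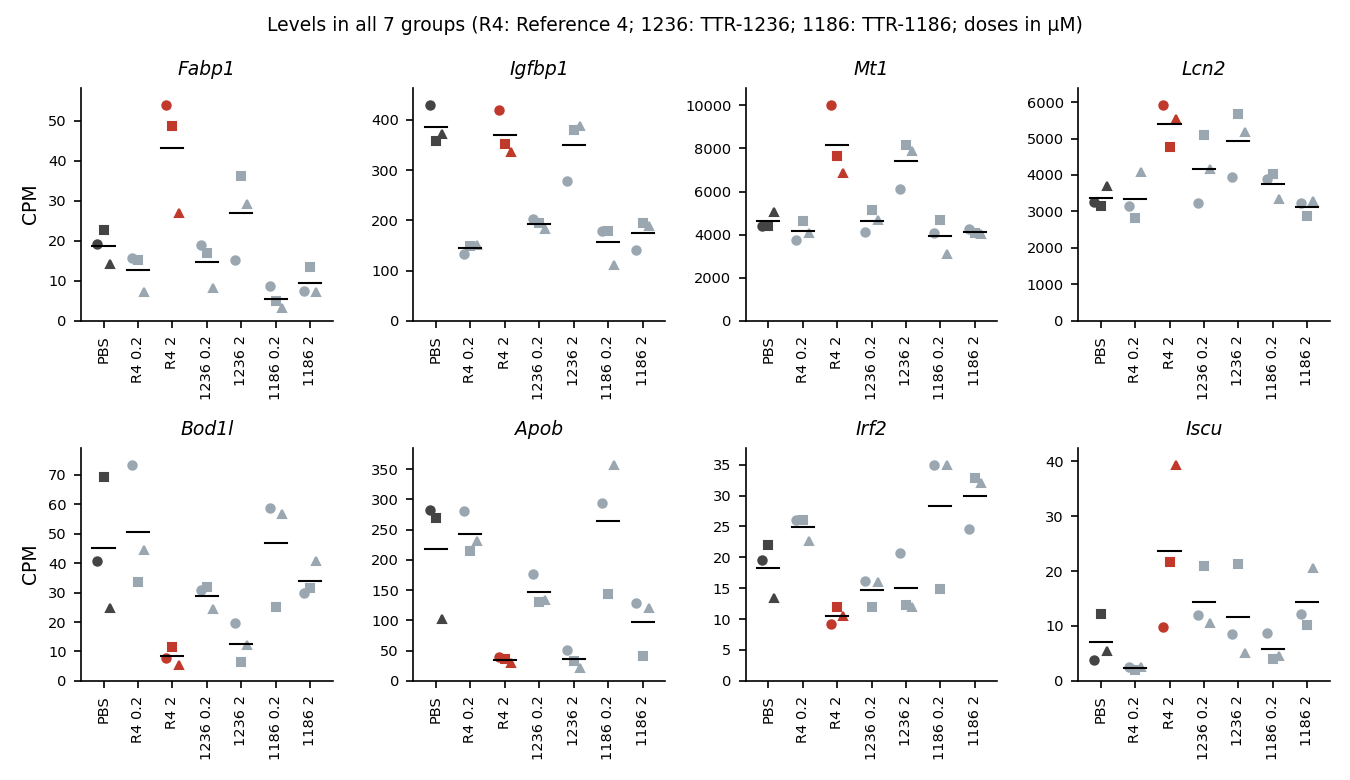
CPM (y axis, from 0) of 8 genes in each library of all 7 groups (x axis, doses in µM). Circles, squares and triangles are replicates 1, 2 and 3 and bars are group means, with PBS in black and Reference 4 at 2 µM in red. Igfbp1 is at 336 to 419 CPM with Reference 4 at 2 µM and at 140 to 194 CPM with TTR-1186 at 2 µM.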

How the data were processed

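The members, gene lists and naming rule were chosen with earlier results of these data known. The authors deposited CPM, per the file headers and values, each library summing to 1000000 over the same 9657 genes. The submitters' processing notes name mouse build mm10 and the tools HISAT2 2.1.0, featureCounts and cutadapt 1.15. No source used here gives settings, strandedness or annotation release. Symbols and coordinates are from a GENCODE annotation of GRCm38, which matched 9652 identifiers, and promoters from RefSeq GRCm38.p6.

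The fit was limma 3.58.1 in R 4.3.3 on log2(CPM + 1), with 1 mean for each of the 7 groups, all 21 libraries in the fit, robust moderation of trended variances, no covariate and Benjamini-Hochberg adjustment over all genes. Every value (100%) was a whole number of reads within 0.001 read, so edgeR 4.0.16 and DESeq2 1.42.0 were run on recovered reads as alternatives: against PBS, edgeR called 290 genes with TMM factors and 306 with DESeq2 size factors, and DESeq2 728. Other alternatives were TMM-scaled CPM, a pseudocount of 0.5 or of 5, only genes averaging at least 10 CPM, a prior that is not robust, only the 6 libraries, the replicate number as a block, and each library left out. The analysis as run has no filter on low values beyond that of the files.

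Samples with the same replicate number deviated together weakly in Reference 4 at 2 µM and PBS (r across genes of 0.10, 0.13 and 0.16). Deviations from a group's own mean are not independent, and the labels name no pairing. Whether the numbers pair samples is therefore not settled. The main fit used no pairing, and the block is given only as an alternative. Even the 2 most alike replicate libraries of a group had a chi-square of 25.1 for each degree of freedom. No library was therefore a copy of another in its group. Libraries of different groups were not compared in this way. On simulated data for this comparison, with 200 of 9657 genes changed, 40% of 2-fold and 84% of 4-fold changes were recovered and 5 of 9457 unchanged genes were called. Changed genes were drawn only from those averaging at least 5 CPM, so the recovery rates do not cover lower genes. The simulation drew each gene on its own, with no shift shared by the genes of a library. In the data, leaving out PBS replicate 3 alone moved the count from 217 to 1272, so these rates may not hold for it.

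Named genes were Ttr, and, of genes past the threshold with a mean of at least 10 CPM over the 6 libraries and groups that do not overlap, the 20 largest rises and 20 largest falls, leaving out predicted genes, clone names and pseudogenes. Of pseudogenes the 3 largest each way were named. Added were up to 6 members with the smallest p of those past the threshold in each of 54 lists (8 of them cell type markers), or up to 2 where none passed, and for each contrast between treated groups all genes past the threshold where 30 or fewer, otherwise the 10 largest each way. Not every such gene is described. Paralogs and overlapping genes stand beside a named gene, and other genes outside the rule were chosen after their values were seen.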

Additional observations from a re-analysis of the deposited data

Results flagged for a closer look

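The difference between Reference 4 and TTR-1186 at 2 µM was itself tested, with limma and Benjamini-Hochberg adjustment over all genes, and 20 named genes passed. None of the 20 passed without Reference 4 replicate 1. Ttc3 and Acbd3 passed in 0 of the 6 fits with 1 library left out, Slc39a14 and Irf2 in 1, and the calls of Igfbp1 and Mt1 were lost in 1. Log2 differences, Reference 4 minus TTR-1186, were positive for Fabp1 (2.09), Hpd (1.96), Gnmt (1.27), Slc39a14, a zinc and iron importer (1.25), Igfbp1 (1.09), Irf7 (1.05), Bnip3, a mitophagy receptor (1.01), Mt1 (0.97), Cdo1 (0.83) and Lcn2 (0.79). They were negative for Bod1l (-1.95), Bc1 (-1.80), Lrrc17 (-1.80), Irf2 (-1.42), Ppp2r5b (-1.25), Gpha2 (-1.24), Ttc3 (-1.23), Acbd3 (-1.16), Sox4 (-1.11) and Vti1b (-1.02). In each the libraries of the 2 groups did not overlap, as for 18.3% of all genes. Mitochondrial ribosomal RNA made up 0.767% ± 0.361 of reads with Reference 4 and 1.59% ± 0.852 with TTR-1186 (SD, n = 3, exact permutation p = 0.3), and its part in these differences was not tested.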

How the results depend on the processing

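Against PBS, where 217 genes passed, 728 passed with DESeq2 and 40 with only the 6 libraries compared, and leaving out 1 library gave 6 to 1272. With the replicate number as a block 288 genes passed, of which 212 were among the 217, and the block took the call from 1 named gene, Rpl26-ps2, while adding calls in several lists. The 17 lists other than markers with 0 calls held 2 rises and 4 falls with the block and 21 and 37 without PBS replicate 3. Between doses, where 1239 passed, leaving out 1 library gave 208 to 1148 and the block 1257. Against TTR-1236, DESeq2 called 1 gene and every other setting 0. Against TTR-1186, where 36 passed, DESeq2 called 127, leaving out 1 library gave 2 to 48, and the block gave 34. In the last 3 comparisons, libraries with the same number deviated together at every number for TTR-1236 only, which does not settle a pairing. Of 1864 values of named genes under these alternatives 1397 kept their direction and side of the threshold, 373 were no longer past it, 89 came past it and 5 changed sign. Those 5 belonged to markers that did not pass. With 1 library left out Csf1r (-0.07 in the full fit) ranged from -0.32 to 0.12, being above 0 without Reference 4 replicate 1 (0.12), PBS replicate 2 (0.01) or PBS replicate 3 (0.08). Egfl7 (-0.10) ranged from -0.24 to 0.029, above 0 without PBS replicate 3, and Sox9 (0.12) from -0.040 to 0.27, below 0 without Reference 4 replicate 1. The cause of these differences was not tested. With 3 libraries a group, 40% of simulated 2-fold changes in genes averaging at least 5 CPM were recovered. Changes of that size can thus be missed.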
